A study of Homo sapiens with 5 samples.

Results

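The 40 genes described here are those of glycolysis and of the response to low oxygen: glucose transporters, the enzymes from hexokinase to lactate dehydrogenase, lactate transporters, the kinases that set glycolytic flux, the hypoxia-inducible factor (HIF) subunits with the enzymes that sense oxygen, and HIF targets outside glycolysis. They were chosen by gene symbol among the protein-coding rows of the deposited table, and all 40 were found among its 60504 genes. Their RNA was measured by total RNA sequencing in DAOY, a human cell line of the sonic hedgehog (SHH) subgroup of medulloblastoma, a childhood tumor of the cerebellum. Cells received 20 nM siRNA for 48 h in Lipofectamine RNAiMAX. A non-targeting control siRNA (si-NC) gave 2 libraries, and siRNA against circ_63706 (si-circ_63706), a circular RNA of the PCNT locus, gave 3 libraries. The study used more than 1 siRNA against this circular RNA, and the labels do not say which of them each library received. Both groups carried a transfected siRNA, and no untransfected cells are compared. The comparison asks which genes differ once circ_63706 is depleted. The table has a row for the PCNT gene and none for the circular RNA, so the depletion itself cannot be read from it. PCNT was at 9.96 and 10.38 TPM in si-NC and at 8.80, 7.99 and 7.54 TPM after the knockdown. TPM are transcripts per sum of 1000000, a level corrected for transcript length and library size. Whether the PCNT reads came from linear or circular RNA was not tested. By quantitative PCR, the paper reported that the siRNAs did not affect PCNT.

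Glycolysis splits glucose into pyruvate and yields ATP without oxygen. Glucose enters through transporters such as GLUT1, the upper steps spend ATP to make triose phosphates, the lower steps recover it, and lactate dehydrogenase turns pyruvate into lactate, which leaves the cell through monocarboxylate transporters. When oxygen is present, prolyl hydroxylases mark the HIF alpha subunits for degradation through the VHL protein. When oxygen falls, the alpha subunits persist, pair with ARNT and bind short motifs with the core RCGTG, and many glycolytic genes are among their targets. Many tumors run glycolysis at a high rate in air as well, and SHH signaling is known to raise glycolytic genes in cerebellar granule cell precursors, the cells from which SHH medulloblastoma arises.

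The libraries differed in more than these genes. Protein-coding genes held 29.02% of the TPM in each si-NC library, but 25.2%, 26.2% and 26.9% after si-circ_63706, and the non-coding RN7SL1 alone held 25.4% to 25.6% and 28.1% to 29.2%. TPM of a library always sum to 1000000, so a larger non-coding share lowers the TPM of other genes. Fold changes are therefore given on a pair of scales: from TPM as deposited, and from TPM rescaled so that the typical gene of 10 TPM or more, by its median log2 ratio to the average library, did not differ between libraries (libraries centred). Fold changes are on the log2(TPM + 1) scale, which understates changes of low genes, and come from limma over the 12710 genes with a mean of at least 1 TPM, with Benjamini-Hochberg adjustment over all of them and a threshold of 0.05. The median log2 fold change over all genes tested was -0.16 as deposited and -0.02 with libraries centred. Of 11 marker genes of SHH medulloblastoma, 8 reached a mean of 1 TPM, with GLI1, MYCN and ATOH1 below it, and markers of blood and vessel cells summed to 0.53 to 0.65 TPM in every library. The SHH markers summed to 51.9 and 55.6 TPM in si-NC and to 45.6 to 47.5 TPM in si-circ_63706, and their part in the results was not tested.

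As deposited, lower genes outnumbered higher genes among the 38 tested, as they did over all genes, and the shares of both were close to those over all genes. Of the 38 genes tested, 15 were lower and 2 were higher with TPM as deposited, against 35.4% lower and 4.16% higher over all genes tested. With libraries centred, 9 were lower and 5 were higher, against 15.2% and 12.3% of all genes. When protein-coding genes alone were rescaled to the same total, 10 were lower and 6 higher, against 21.2% and 13.9%. The median log2 fold change of the 38 genes was -0.13 as deposited and 0.02 with libraries centred, both close to the medians of all genes. The 9 genes lower on both scales were SLC2A1, PFKL, ALDOA, ALDOC, GPI, GAPDH, ENO1, LDHB and SLC16A3, all of them glucose transport, glycolysis or lactate genes. Those roles supplied much of the tested set, with 2 glucose transporter, 9 upper glycolysis, 6 lower glycolysis and 4 lactate genes. HK1 and P4HA2 were higher on both. In 24 of the 38 genes every si-circ_63706 library was below every si-NC library in deposited TPM, and in 3 every one was above; over all genes tested these shares were 55.2% and 8.93%. These counts rest on few libraries: without si-NC replicate 1 the lower genes numbered 9 as deposited and 1 centred, and without si-NC replicate 2 they numbered 3 centred. The higher genes numbered 0 as deposited without either si-NC library (limma; 2 and 1 at an unadjusted p under 0.05 without replicates 1 and 2), and 1 without si-circ_63706 replicate 2 or without replicate 3. With libraries centred they numbered 2 without either si-NC library or without si-circ_63706 replicate 2. In RNA from bulk cells, fewer cells of a type and less RNA per cell cannot be told apart.

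**Figure D1:**
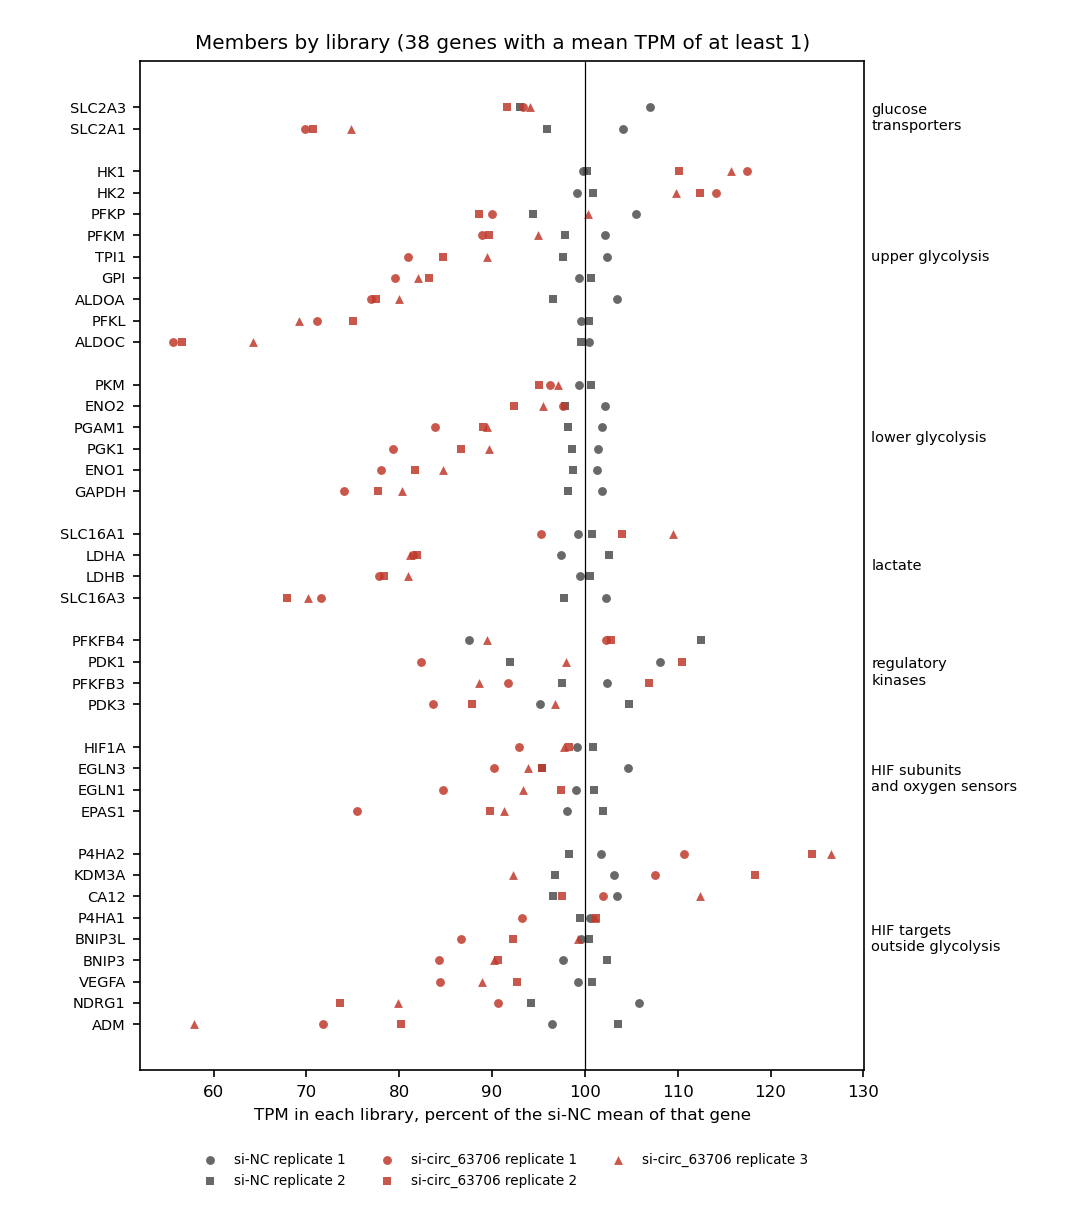
TPM of the 38 tested genes in each library, as a percentage of the gene's si-NC mean, with 1 row per gene grouped by role. Gray points are the 2 si-NC libraries and red points the 3 si-circ_63706 libraries; the red points lie left of the gray points for most glycolytic enzymes and right of them for HK1, HK2 and P4HA2.

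**Figure D2:**
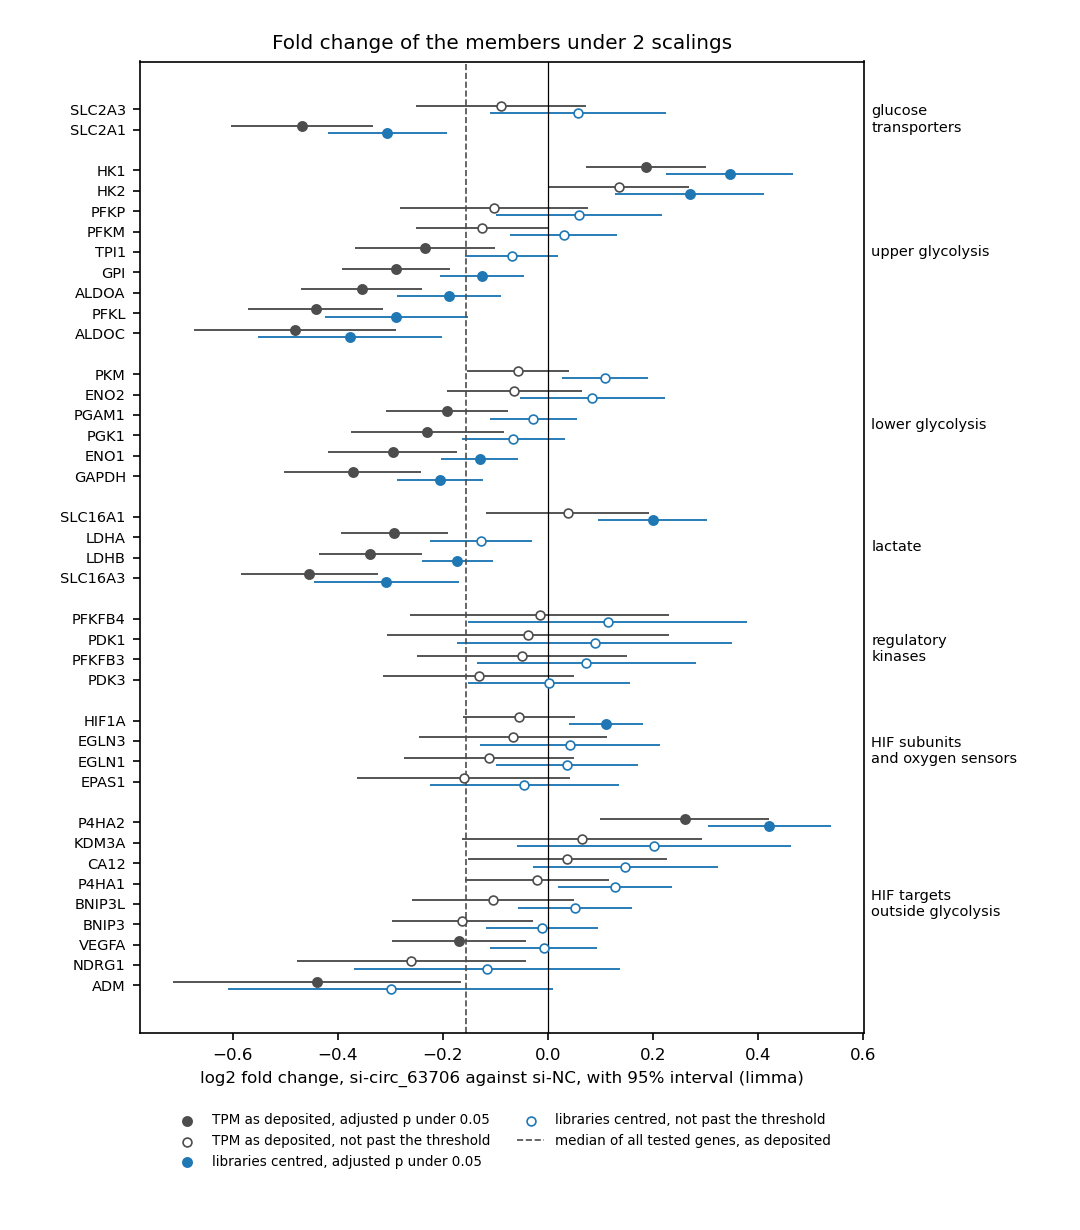
Log2 fold change of each tested gene, si-circ_63706 against si-NC, with its 95% interval from limma, for TPM as deposited (gray) and for centred libraries (blue). Filled points passed an adjusted p of 0.05; the dashed line is the median of all genes as deposited, -0.16, and 15 gray points below 0 and 9 blue points below 0 are filled.

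The promoters of 4 genes are shown because the genes moved in different directions: SLC2A1 and ALDOC, which were lower, and HK2 and P4HA2, which were higher with libraries centred. Each is the RefSeq window of 300 bases on GRCh38.p14, from 250 bases before a RefSeq start of the gene to 50 after it, on the strand of the gene, at chr1:42958819-42959118 (minus strand) for SLC2A1, chr17:28576846-28577145 (minus) for ALDOC, chr2:74833877-74834176 (plus) for HK2 and chr5:132227042-132227341 (minus) for P4HA2. RefSeq starts need not be the ends of the GENCODE spans used for gene positions: the windows of SLC2A1, ALDOC and P4HA2 lie inside those spans, and that of P4HA2 lies far from the end where the span starts on its strand. Capitals mark matches to ACGTG or GCGTG, the forms that a HIF site can take, on either strand, so that CACGT and CACGC are matches on the opposite strand and CACGTG counts on both.
SLC2A1: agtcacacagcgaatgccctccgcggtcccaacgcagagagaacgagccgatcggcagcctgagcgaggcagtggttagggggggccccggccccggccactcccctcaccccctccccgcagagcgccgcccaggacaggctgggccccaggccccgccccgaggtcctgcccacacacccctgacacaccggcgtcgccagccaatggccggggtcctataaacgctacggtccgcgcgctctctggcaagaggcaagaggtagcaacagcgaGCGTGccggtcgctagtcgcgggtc
ALDOC: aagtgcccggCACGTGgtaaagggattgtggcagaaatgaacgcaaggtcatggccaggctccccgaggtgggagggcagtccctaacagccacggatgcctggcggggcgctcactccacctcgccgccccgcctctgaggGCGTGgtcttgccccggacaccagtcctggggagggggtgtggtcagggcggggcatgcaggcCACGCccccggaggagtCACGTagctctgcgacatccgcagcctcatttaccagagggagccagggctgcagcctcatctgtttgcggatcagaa
HK2: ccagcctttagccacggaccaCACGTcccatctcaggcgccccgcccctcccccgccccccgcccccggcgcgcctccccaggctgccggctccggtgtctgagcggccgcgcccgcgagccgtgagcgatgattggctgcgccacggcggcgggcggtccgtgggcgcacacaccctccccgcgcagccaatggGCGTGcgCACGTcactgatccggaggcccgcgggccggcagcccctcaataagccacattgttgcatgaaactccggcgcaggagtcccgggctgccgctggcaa
P4HA2: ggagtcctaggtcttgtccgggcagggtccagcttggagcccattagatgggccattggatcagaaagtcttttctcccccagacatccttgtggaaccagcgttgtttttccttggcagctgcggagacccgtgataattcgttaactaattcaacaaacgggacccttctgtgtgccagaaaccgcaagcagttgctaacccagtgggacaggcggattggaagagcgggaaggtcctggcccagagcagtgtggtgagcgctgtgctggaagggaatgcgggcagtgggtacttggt
The window of SLC2A1 had 1 match, that of ALDOC 5, that of HK2 shown here 3 and that of P4HA2 0. HK2 has another RefSeq window, not shown, with 6 matches. RefSeq windows were found for 35 of the 40 genes, 63 windows in all; SLC2A3, SLC16A1, VEGFA, BNIP3L and NDRG1 had none. Of the 63 windows, 68.3% held either motif, against 48.4% of all 35116 RefSeq windows of the same length. The share was 38.1% against 21.4% for ACGTG and 42.9% against 36.5% for GCGTG. Genes had unequal numbers of windows, 7 each for HK1 and PFKM, so these shares weigh some genes more than others. A share by gene was not worked out for all RefSeq genes. The windows of these genes were also richer in G and C, with a median of 68.7% against 58.7%, and both motifs are rich in G and C themselves. Of the 35 genes with a window, 32 had a match in at least 1 of them, so that the 9 of 9 lower genes and 3 of 4 higher genes (libraries centred) that had one were near the share of the whole set. By window, either motif was in 86.7% of 15 windows of the lower genes and 41.7% of 12 windows of the higher genes. HK1 gave 7 of those 12 windows, and 2 of the 7 held a match. The difference by window was not tested. A match describes these letters only, and binding was not measured.

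Counts by role, here and below, are read against all genes tested. Of those, 35.4% were lower and 4.16% higher as deposited, and 15.2% and 12.3% with libraries centred. Of the glucose transporter genes, 1 of 2 was lower, on both scales. SLC2A1 (ENSG00000117394, chr1:42925375-42959176 on GRCh38) encodes GLUT1, the basal glucose transporter of most cells. Its level was 61.96 and 57.06 TPM in si-NC and 41.54, 42.10 and 44.52 TPM in si-circ_63706. All 3 knockdown libraries lay below both controls. The log2 fold change was -0.47 ± 0.0560 (SE, adjusted p = 0.00227) as deposited and -0.31 ± 0.0459 (adjusted p = 0.00740) with libraries centred, and it passed the threshold with each of the 5 libraries left out in turn on both scales. SLC2A3 encodes GLUT3, the high-affinity transporter typical of neurons. It was at 8.62 and 7.49 TPM in si-NC and at 7.52, 7.38 and 7.58 TPM in si-circ_63706, so the groups overlapped. Its log2 fold change was -0.09 (95% interval -0.25 to 0.07, adjusted p = 0.326) as deposited and 0.06 (-0.11 to 0.23) centred.

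In the upper part of glycolysis, 5 of 9 genes were lower and 1 was higher as deposited, and 4 were lower and 2 higher with libraries centred. Over all genes tested the shares were 35.4% and 4.16% as deposited, and 15.2% and 12.3% centred. The hexokinases trap glucose in the cell by adding a phosphate, and their genes lay above the controls in every knockdown library. HK1, the hexokinase present in most tissues, was at 24.76 and 24.86 TPM in si-NC and at 29.13, 27.33 and 28.71 TPM in si-circ_63706, without overlap. The log2 fold change of HK1 was 0.19 ± 0.0477 (adjusted p = 0.0233) as deposited and 0.35 ± 0.0493 (adjusted p = 0.00634) centred. The centred call held with each library left out, and the deposited call was lost without either si-NC library. HK2, the inducible hexokinase of muscle and many tumors, was at a lower level: 4.19 and 4.26 TPM in si-NC against 4.82, 4.75 and 4.64 TPM in si-circ_63706. All knockdown libraries were above both controls. The non-coding gene AC019069.1 overlaps exons of HK2 on the opposite strand. It was at 1.08 and 1.08 TPM in si-NC and at 1.40, 1.29 and 1.27 TPM in si-circ_63706. The split of reads between HK2 and AC019069.1 was not tested. The difference in HK2 passed the test with libraries centred, with a log2 fold change of 0.27 ± 0.0581 (adjusted p = 0.0209). It did not pass as deposited, at 0.13 (adjusted p = 0.0983). The centred call was lost without si-NC replicate 1, si-NC replicate 2 or si-circ_63706 replicate 2.

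Of the steps after hexokinase, GPI, PFKL and the aldolases were lower on both scales, TPI1 as deposited only, and PFKM and PFKP on neither. GPI, the isomerase after hexokinase, was at 61.39 and 62.20 TPM in si-NC and at 49.16, 51.42 and 50.69 TPM in si-circ_63706. The groups stood apart, with a log2 fold change of -0.29 ± 0.0428 (adjusted p = 0.00414) as deposited. With libraries centred it was -0.13 ± 0.0329 (adjusted p = 0.0378), a call that was lost whichever library was left out. A same-strand gene whose exons overlap those of GPI, AC092073.1, was at 2.79 and 3.39 TPM in si-NC and at 4.38 to 4.85 TPM in si-circ_63706, and the split of reads between them was not tested. Phosphofructokinase, which commits sugar to glycolysis, has 3 genes here. PFKL, the liver type, was at 14.04 and 14.15 TPM in si-NC and at 10.03, 10.57 and 9.75 TPM in si-circ_63706. It fell, with a log2 fold change of -0.44 ± 0.0534 (adjusted p = 0.00234) as deposited and -0.29 ± 0.0554 (adjusted p = 0.0150) centred, the latter lost without either si-NC library. PFKM, the muscle type, and PFKP, the platelet type and the most abundant form, did not pass the test on either scale. Their log2 fold changes were -0.13 (95% interval -0.25 to 0.00) and -0.10 (-0.28 to 0.08) as deposited, and 0.03 (-0.07 to 0.13) and 0.06 (-0.10 to 0.22) centred.

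Aldolase splits the phosphorylated hexose into trioses. ALDOA, its main form outside liver and brain, was at 334.42 and 312.06 TPM in si-NC and at 248.74, 250.45 and 258.34 TPM in si-circ_63706. ALDOC, the brain form, was close to the lower limit of testing, at 2.22 and 2.20 TPM in si-NC and at 1.23, 1.25 and 1.42 TPM in si-circ_63706. Neither gene's groups overlapped. ALDOC had the lowest log2 fold change of all 38 genes as deposited, -0.48 ± 0.0798 (adjusted p = 0.00581), and was at -0.38 ± 0.0715 (adjusted p = 0.0145) centred. For ALDOA the values were -0.35 ± 0.0479 (adjusted p = 0.00318) and -0.19 ± 0.0404 (adjusted p = 0.0206). The centred call of ALDOC was lost without either si-NC library, and that of ALDOA without si-NC replicate 1, si-circ_63706 replicate 2 or si-circ_63706 replicate 3. TPI1, which interconverts the trioses, was at 386.52 and 368.76 TPM in si-NC and at 305.72, 319.73 and 337.70 TPM in si-circ_63706. It was lower as deposited, at -0.23 (adjusted p = 0.0182), and not with libraries centred, at -0.07 (adjusted p = 0.207).

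In the lower part of glycolysis all 6 genes had every si-circ_63706 library below every si-NC library in deposited TPM, as did 55.2% of all genes tested. Of the 6 genes, 4 passed the test as deposited and 2 with libraries centred, all of them lower. Over all genes tested, 35.4% were lower as deposited and 15.2% with libraries centred. GAPDH, which makes the first high-energy intermediate and is widely used as a reference gene, was the most abundant of the 40 genes. Its level was 2629.58 and 2534.29 TPM in si-NC and 1911.23, 2005.74 and 2073.77 TPM in si-circ_63706. The log2 fold change was -0.37 ± 0.0542 (adjusted p = 0.00394) as deposited and -0.21 ± 0.0333 (adjusted p = 0.00930) centred, lost only without si-NC replicate 1 on the second scale. Its antisense gene AC006064.4 was at 9.17 and 11.32 TPM in si-NC and at 6.40, 5.08 and 4.70 TPM in si-circ_63706, which is small beside GAPDH itself. The strand setting of the counting is not given in the sources used here, so reads of such pairs cannot be told apart. The 61 annotated GAPDH pseudogenes summed to at most 0.168% of GAPDH in any library.

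ENO1, the common enolase, was at 1078.43 and 1050.45 TPM in si-NC and at 831.01, 869.40 and 901.78 TPM in si-circ_63706. That gave a log2 fold change of -0.30 ± 0.0510 (adjusted p = 0.00659) as deposited and -0.13 ± 0.0300 (adjusted p = 0.0259) centred. ENO1 was thus lower on both scales, but the first call was lost without si-NC replicate 1 and the second held only without si-circ_63706 replicate 1. PGK1 and PGAM1, which carry the phosphate through the middle of the lower steps, were lower as deposited, at -0.23 (adjusted p = 0.0260) and -0.19 (adjusted p = 0.0222). They were at -0.07 and -0.03 with libraries centred and did not pass. The deposited calls of PGK1, PGAM1 and TPI1 were each lost without si-NC replicate 1, si-NC replicate 2 or si-circ_63706 replicate 2. ENO2, the neuronal enolase, averaged 8.88 TPM in si-NC and 8.45 TPM in si-circ_63706 and passed on neither scale, at -0.06 as deposited and 0.08 centred. PKM, the pyruvate kinase of most tissues, was the highest of the lower steps in fold change. It was at 711.57 and 720.71 TPM in si-NC and at 689.53, 680.75 and 695.10 TPM in si-circ_63706. Its log2 fold change was -0.06 (95% interval -0.15 to 0.04, adjusted p = 0.299) as deposited and 0.11 (0.03 to 0.19, adjusted p = 0.0600) centred, and 0.10 (adjusted p = 0.0269) when protein-coding genes alone were rescaled.

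Of the lactate genes, 3 of 4 were lower as deposited, and 2 were lower and 1 higher with libraries centred. Over all genes tested, 35.4% were lower as deposited, and 15.2% were lower and 12.3% higher centred. Lactate dehydrogenase has an A subunit, which favors lactate production, and a B subunit typical of heart. LDHA was at 197.50 and 208.07 TPM in si-NC and at 165.25, 166.07 and 164.61 TPM in si-circ_63706. LDHB was at 238.93 and 241.34 TPM in si-NC and at 186.86, 188.28 and 194.34 TPM in si-circ_63706. Both were below both controls in every knockdown library. The log2 fold change of LDHA was -0.29 ± 0.0424 (adjusted p = 0.00383) as deposited and -0.13 ± 0.0393 (adjusted p = 0.0595) centred. For LDHB it was -0.34 ± 0.0409 (adjusted p = 0.00236) and -0.17 ± 0.0276 (adjusted p = 0.00892), the second lost without either si-NC library.

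The lactate transporters parted. SLC16A3 encodes MCT4, the low-affinity exporter of glycolytic cells and a HIF target. Its level was 8.93 and 8.53 TPM in si-NC and 6.25, 5.93 and 6.13 TPM in si-circ_63706. It fell on both scales, by 0.45 on the log2 scale (SE 0.0543, adjusted p = 0.00227) as deposited and by 0.31 (SE 0.0565, adjusted p = 0.0131) centred, the latter lost without either si-NC library. CSNK1D, which overlaps it on the opposite strand, was at 14.57 and 14.84 TPM in si-NC and at 11.65 to 13.74 TPM in si-circ_63706. SLC16A1 encodes MCT1, which carries lactate in either direction. It was at 34.09 and 34.62 TPM in si-NC and at 32.73, 35.74 and 37.60 TPM in si-circ_63706, with overlapping groups. Its log2 fold change was 0.04 (95% interval -0.12 to 0.19, adjusted p = 0.665) as deposited and 0.20 ± 0.0425 (adjusted p = 0.0203) centred; the centred call was kept only without si-circ_63706 replicate 1.

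Of the 4 regulatory kinases, 0 passed the limma test on either scale, 0 had an unadjusted p under 0.05, and the groups overlapped in each. PDK1 and PDK3 inhibit pyruvate dehydrogenase and so keep pyruvate out of mitochondria, and PFKFB3 and PFKFB4 set the level of the sugar phosphate that activates phosphofructokinase. PDK1, a known HIF target, was at 3.73 and 3.17 TPM in si-NC and at 2.84, 3.81 and 3.38 TPM in si-circ_63706. PDK3 was at 4.37 and 4.81 TPM against 3.84, 4.03 and 4.44 TPM. PFKFB4 was at 3.08 and 3.96 TPM against 3.60, 3.62 and 3.15 TPM. These genes are low, and their intervals are wide: the log2 fold change as deposited was -0.04 (95% interval -0.31 to 0.23) for PDK1, -0.13 (-0.31 to 0.05) for PDK3 and -0.02 (-0.26 to 0.23) for PFKFB4. PFKFB3, with 2.56 to 3.09 TPM in the 5 libraries, was at -0.05 (-0.25 to 0.15). With libraries centred the signs turned, to 0.09 (-0.17 to 0.35) for PDK1, 0.0026 (-0.15 to 0.16) for PDK3, 0.11 (-0.15 to 0.38) for PFKFB4 and 0.07 (-0.14 to 0.28) for PFKFB3. A missed threshold does not show that these genes were alike in the groups.

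Of the 4 HIF subunits and sensors, 0 passed the limma test as deposited and 0 had an unadjusted p under 0.05 there, while 1 passed with libraries centred. HIF1A, the widely expressed alpha subunit, was high, at 202.90 and 206.36 TPM in si-NC and at 190.16, 201.06 and 200.04 TPM in si-circ_63706. The knockdown libraries were all slightly below the controls. Its log2 fold change was -0.05 (95% interval -0.16 to 0.05, adjusted p = 0.365) as deposited, and 0.11 ± 0.0288 (adjusted p = 0.0366) with libraries centred, so that the direction turned with the scale. The centred call was lost with any 1 library left out. EPAS1, which encodes HIF-2 alpha, was at 2.48 and 2.58 TPM in si-NC and at 1.91, 2.27 and 2.31 TPM in si-circ_63706. Its log2 fold change was -0.16 (-0.36 to 0.04, adjusted p = 0.173) as deposited and -0.04 (-0.22 to 0.14) centred. EGLN1, the main oxygen-sensing prolyl hydroxylase, ranged from 7.85 to 9.36 TPM, and EGLN3, a hydroxylase that HIF itself induces, from 1.76 to 2.04 TPM; neither passed on either scale. The log2 fold change was -0.11 as deposited and 0.04 centred for EGLN1, and -0.07 and 0.04 for EGLN3. HIF activity is set largely through the stability of the protein, which these libraries do not measure.

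Among the 11 HIF targets outside glycolysis, 9 were tested: 2 were lower and 1 higher as deposited, and 0 were lower and 1 higher with libraries centred (limma; at an unadjusted p under 0.05, 0 lower and 2 higher). Over all genes tested, 35.4% were lower and 4.16% higher as deposited, and 15.2% and 12.3% centred. The higher gene among these targets was P4HA2, a subunit of the prolyl hydroxylase that matures collagen. It was at 34.89 and 33.73 TPM in si-NC and at 37.96, 42.69 and 43.41 TPM in si-circ_63706, without overlap. For P4HA2 the log2 fold change was 0.26 ± 0.0670 (adjusted p = 0.0240) as deposited and 0.42 ± 0.0480 (adjusted p = 0.00342) centred, the highest of the 38 genes on both scales. The centred call held with each library left out. The deposited call was kept only without si-circ_63706 replicate 1. Its partner P4HA1, another form of the same subunit, ranged from 8.01 to 8.69 TPM in all libraries and passed on neither scale, at -0.02 as deposited and 0.13 centred.

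ADM, which encodes the vasodilator peptide adrenomedullin, was at 5.90 and 6.34 TPM in si-NC and at 4.39, 4.91 and 3.54 TPM in si-circ_63706. All 3 were below the controls and spread more widely than they did. The log2 fold change was -0.44 ± 0.114 (adjusted p = 0.0245) as deposited and -0.30 ± 0.126 (adjusted p = 0.131) centred. The deposited call was lost without si-NC replicate 1, si-NC replicate 2 or si-circ_63706 replicate 1. VEGFA, the main growth factor for blood vessels, was at 37.64 and 38.24 TPM in si-NC and at 32.00, 35.18 and 33.75 TPM in si-circ_63706. It was lower as deposited, at -0.17 ± 0.0530 (adjusted p = 0.0444), a call lost with any 1 library left out, and at -0.01 (95% interval -0.11 to 0.09) centred. Its antisense gene AL136131.3 had values as high as its own, 37.61 and 37.00 TPM in si-NC and 28.54 to 34.81 TPM in si-circ_63706.

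BNIP3, a mitochondrial protein that drives mitophagy, was at 11.27 and 11.81 TPM in si-NC and at 9.73, 10.46 and 10.41 TPM in si-circ_63706. The groups did not overlap, but the log2 fold change of -0.16 (adjusted p = 0.0580) missed the threshold as deposited and was -0.01 (adjusted p = 0.863) centred. BNIP3 has 39 annotated pseudogenes, which summed to as much as 36.1% of its own TPM in a library, so its level is uncertain. NDRG1, a stress-responsive gene, ranged from 6.85 to 7.69 TPM in si-NC and from 5.35 to 6.59 TPM in si-circ_63706, with a log2 fold change of -0.26 (adjusted p = 0.0620) as deposited and -0.12 (adjusted p = 0.442) centred. BNIP3L, the other mitophagy receptor, KDM3A, a histone demethylase, and CA12, a carbonic anhydrase, passed on neither scale. Their log2 fold changes as deposited and centred were -0.10 and 0.05 for BNIP3L, 0.07 and 0.20 for KDM3A, and 0.04 and 0.15 for CA12. The 2 genes under the minimum were CA9 and ANKRD37. CA9, a carbonic anhydrase that is among the most strongly hypoxia-induced genes known, was at 0.18 and 0.10 TPM in si-NC and at 0.03, 0.00 and 0.21 TPM in si-circ_63706. ANKRD37 was at 0.87 and 0.47 TPM in si-NC and at 0.61, 0.45 and 0.72 TPM in si-circ_63706. Both were under 1 TPM in every library, and no fold is given for them.

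Summed over the enzymes from hexokinase to pyruvate kinase, the 15 genes were at 5430 ± 117 TPM (SD, n = 2) in si-NC and at 4450 ± 151 TPM (SD, n = 3) in si-circ_63706. As a share of protein-coding TPM, the sum was 1.87% ± 0.0401 and 1.70% ± 0.00352. GAPDH made up 46.1% of it. The si-circ_63706 libraries were below the si-NC libraries on both measures for the glucose transporters, upper glycolysis, lower glycolysis and the lactate genes. The glucose transporters summed to 67.6 ± 4.26 and 50.2 ± 1.65 TPM, and the lactate genes to 486 ± 9.27 and 397 ± 5.82 TPM. The HIF subunits and sensors summed to 218 ± 2.52 and 210 ± 6.87 TPM, lower as TPM and higher as a share of protein-coding TPM. With 2 libraries against 3, the exact two-sided permutation test over libraries cannot go below 0.2, and each of the sums that did not overlap was at this smallest p (adjusted p = 0.267 over 8 sums).

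**Figure D3:**
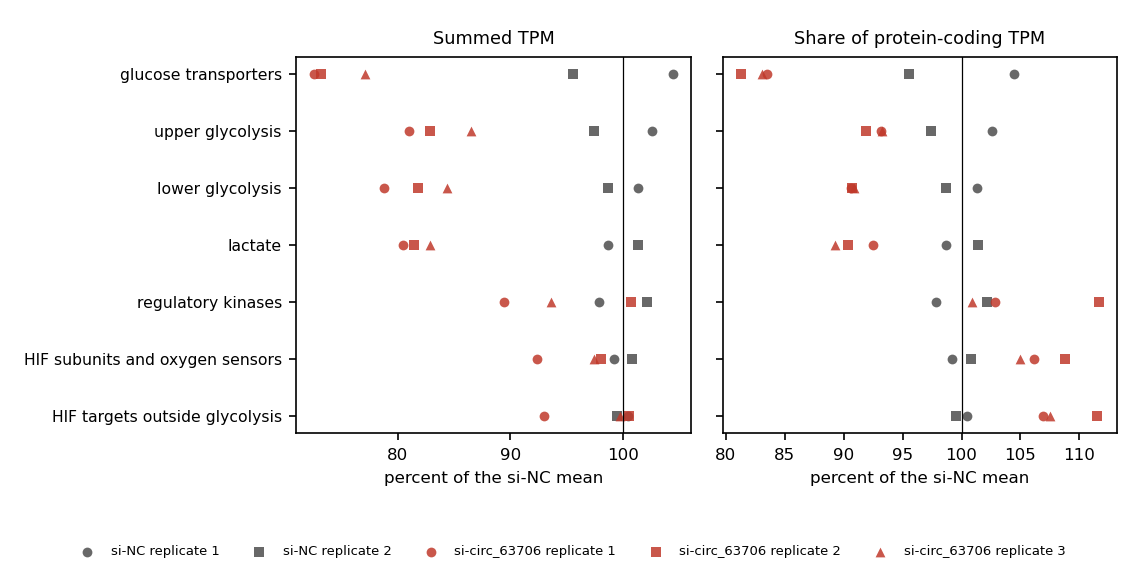
Summed TPM of each role in each library (left) and the same sum as a share of protein-coding TPM (right), both as a percentage of the si-NC mean. The 3 si-circ_63706 libraries (red) lie below the 2 si-NC libraries (gray) in both panels for the upper 4 roles, and on the right they lie above them for the HIF subunits and sensors and for the HIF targets.

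The share that 1 gene holds among the genes of the same step does not depend on how a library was scaled. SLC16A1 held 79.7% ± 0.700 (SD, n = 2) of the summed SLC16A1 and SLC16A3 TPM in si-NC and 85.2% ± 1.11 (SD, n = 3) in si-circ_63706. PFKL held 17.9% ± 1.06 of the phosphofructokinase TPM in si-NC and 14.5% ± 1.18 in si-circ_63706, while PFKP held 61.4% ± 1.54 and 64.3% ± 1.44. SLC2A1 held 88.1% ± 0.431 and 85.1% ± 0.390 of the glucose transporter sum. P4HA1 held 20.03% ± 0.251 and 17.0% ± 0.388 of the P4HA1 and P4HA2 sum. None of these 5 shares overlapped between the groups. Smaller shifts without overlap were seen for ALDOA (99.3% and 99.5% of the aldolases), ENO1 (99.2% and 99.0% of the enolases) and HIF1A (98.8% and 98.9% of HIF1A and EPAS1). The groups overlapped for the shares of HK1, PFKM, LDHA, PDK1, PFKFB3, EGLN1, BNIP3 and CA9. HK1 was at 85.4% and 85.7% of the hexokinases, and LDHA at 45.8% and 46.6% of lactate dehydrogenase. Over these 16 shares the smallest exact permutation p was 0.2, which is the lowest this design allows (adjusted p = 0.4).

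**Figure D4:**
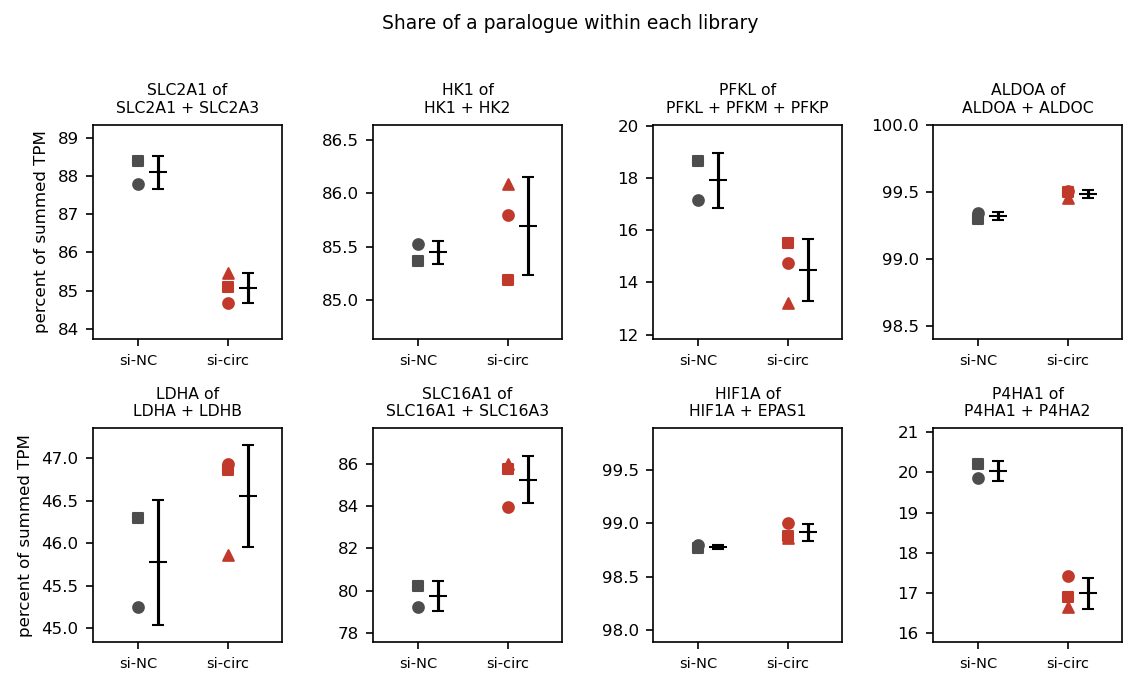
Share of a gene in the summed TPM of its step, in percent, for 8 of the 16 shares. Points are libraries (gray, si-NC; red, si-circ_63706), bars the mean ± SD, and each vertical axis has its own range that does not start at 0; the groups stand apart for SLC2A1, PFKL, SLC16A1 and P4HA1 and overlap for HK1 and LDHA.

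The counts for other genes of these pathways are read against the same shares of all genes tested, 35.4% lower and 4.16% higher as deposited and 15.2% and 12.3% with libraries centred. Of 32 further hypoxia-inducible genes, 30 were tested; 11 were lower and 3 higher as deposited, and 6 were lower and 5 higher with libraries centred. LOX, which cross-links collagen, was the highest, at 18.35 and 21.24 TPM in si-NC and at 27.52, 27.33 and 28.56 TPM in si-circ_63706, with a log2 fold change of 0.47 ± 0.0681 (adjusted p = 0.00377) as deposited. DDIT4, an inhibitor of mTORC1 that stress induces, was the lowest, at 7.66 and 7.29 TPM in si-NC and at 3.78, 4.73 and 4.63 TPM in si-circ_63706, with a log2 fold change of -0.66 ± 0.0913 (adjusted p = 0.00339). Both also passed with libraries centred, at 0.63 and -0.52. This list was made up of hypoxia-inducible genes, so the genes at both of its ends are such genes by construction. The same holds for P4HA2 and ADM among the HIF targets above, of which ADM did not pass with libraries centred.

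Of 11 further regulators of the HIF pathway, 10 were tested; 3 were lower and 0 higher as deposited (limma; 0 higher at an unadjusted p under 0.05), and 3 were lower and 1 higher with libraries centred. CITED2, which competes with HIF for its coactivators, was at -0.41 ± 0.0516 (adjusted p = 0.00257) as deposited and -0.26 ± 0.0458 (adjusted p = 0.0114) centred. HIF1AN, the hydroxylase that blocks coactivator binding, was at 0.11 (adjusted p = 0.194) as deposited and 0.26 ± 0.0553 (adjusted p = 0.0204) centred. Of 7 genes of the pyruvate dehydrogenase complex and its phosphatases, 3 were lower and 1 higher as deposited, and 0 were lower and 3 higher with libraries centred (limma; 1 lower at an unadjusted p under 0.05). PDP1, the phosphatase that reactivates the complex, was higher on both scales, at 0.28 ± 0.0558 (adjusted p = 0.0107) and 0.44 ± 0.0363 (adjusted p = 0.00186). DLAT, its acetyltransferase core, was lower as deposited, at -0.27 ± 0.0482 (adjusted p = 0.00738), and did not pass centred, at -0.11 (adjusted p = 0.0605).

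Of 8 pentose phosphate genes, 7 were tested; 5 were lower as deposited, and 1 was lower and 1 higher with libraries centred. PGLS, which opens the lactone in the oxidative branch, was lower on both, at -0.46 ± 0.0592 (adjusted p = 0.00275) and -0.30 ± 0.0405 (adjusted p = 0.00535). The highest, RPIA, a ribose phosphate isomerase, was at 0.06 (adjusted p = 0.613) as deposited and 0.18 (adjusted p = 0.184) centred. The gene higher with libraries centred was PGD, also of the oxidative branch, at 0.05 (adjusted p = 0.473) as deposited and 0.21 ± 0.0421 (adjusted p = 0.0168) centred; it was named after its values were seen. Of 23 other glycolytic and pyruvate genes, including tissue-restricted isoforms, 10 were tested, with 4 lower as deposited and 1 higher centred. TIGAR, a bisphosphatase that slows glycolysis, was at -0.50 ± 0.102 (adjusted p = 0.0109) as deposited and -0.36 (adjusted p = 0.0573) centred, and HKDC1, a hexokinase-like gene, was at 0.08 (adjusted p = 0.615) as deposited and 0.16 (adjusted p = 0.316) centred. Of 6 genes of gluconeogenesis, 3 were tested and 1, G6PC3, was lower as deposited, at -0.18 ± 0.0465 (adjusted p = 0.0226). PCK2 was at 0.05 (adjusted p = 0.676). With libraries centred they were at -0.03 (adjusted p = 0.598) and 0.19 (adjusted p = 0.159), and 0 of the 3 passed or had an unadjusted p under 0.05 (limma).

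**Figure D5:**
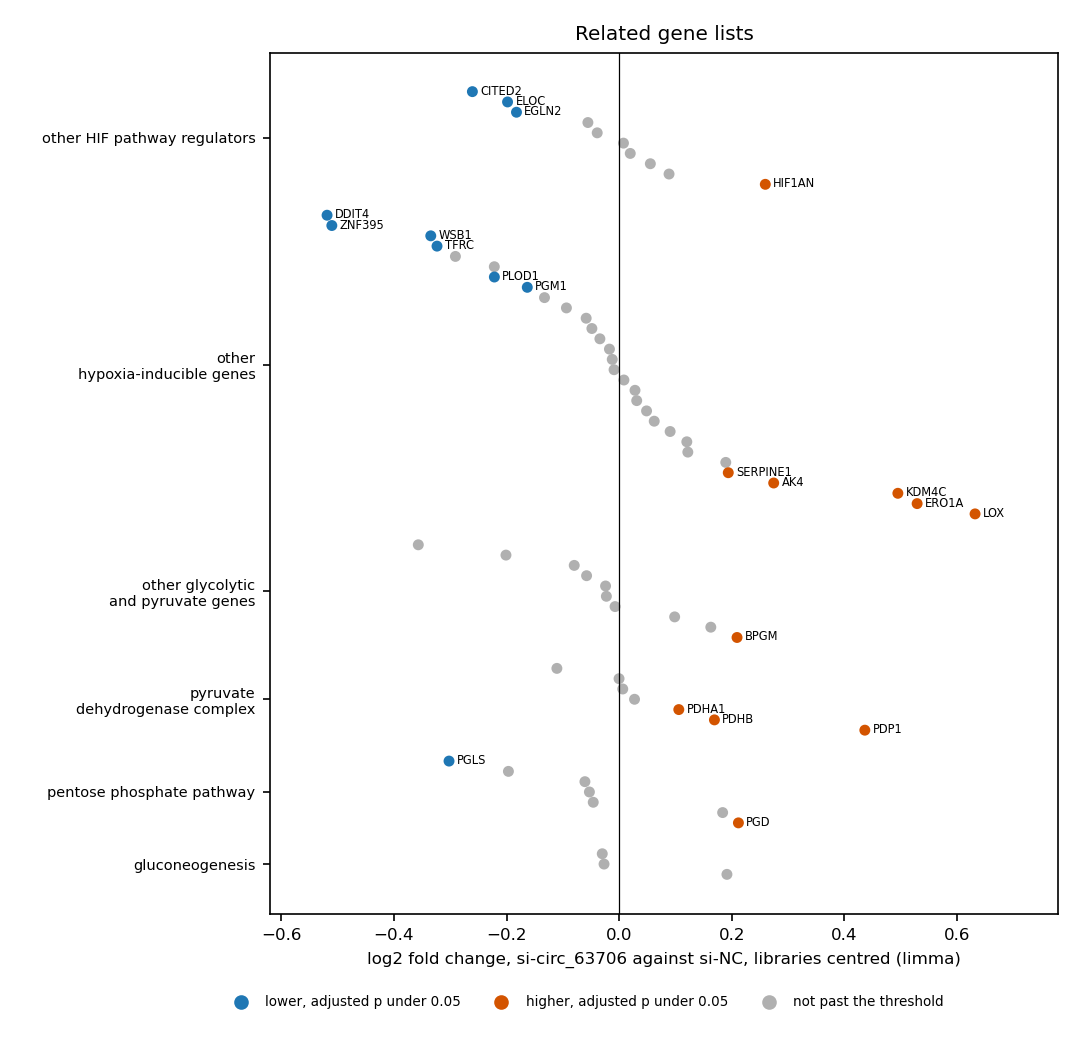
Log2 fold change with libraries centred, si-circ_63706 against si-NC, for the tested genes of 6 related lists, with 1 row per gene in order of its value. Named blue and orange points passed an adjusted p of 0.05; in the largest list, 6 of 30 genes were lower and 5 were higher.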

How the data were processed

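Total RNA of 5 DAOY libraries was sequenced by the authors and deposited as TPM per gene, rounded to 2 decimals. The submitters' processing notes name cutadapt 2.3, STAR 2.7.0d, RSEM 1.3.1 and the build hg38. The annotation and strand setting are not given in the sources used here. TPM keep no read depth, so the depth and the counting error are unknown. Libraries were grouped by their labels. The genes and lists were chosen with earlier results of these data known. Genes averaging 1 TPM or more over the libraries were tested with limma 3.58.1 in R 4.3.3 on log2(TPM + 1), with a mean-variance trend, no covariates and two-sided Benjamini-Hochberg adjustment. The procedure was tested on simulated data. The labels do not say that replicates were separate cultures, so p values measure the spread between these libraries only. Alternatives were other scalings, pseudocounts and minimums, no trend, a replicate block and leaving out each library. Shares and sums were compared by exact permutation. Positions and overlaps came from GENCODE 29 and promoters from RefSeq. Genes given by library included the extremes of each role, those of the 40 passing on both scales, those under the minimum and 10 central genes named in the rule. Of the extremes of the related lists, LOX and DDIT4 were given by library and the others by fold change.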

Additional observations from a re-analysis of the deposited data

Results flagged for a closer look

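The HIF1A pseudogene HIF1AP1 (chr14:75116426-75116600 on GRCh38), which no comparison above uses, had 0 TPM listed for each si-NC library and 0.54, 0.64 and 0.64 TPM after si-circ_63706, a mean of 0.607 ± 0.0577 TPM (SD, n = 3). It drew attention because a signal appeared above that of the controls. Over all genes listed, 29748 and 29253 were above 0 TPM in the si-NC libraries, against 33963, 33905 and 34347 in the si-circ_63706 libraries. More genes were thus above 0 in every knockdown library, so a value of 0 in the controls does not by itself set HIF1AP1 apart. HIF1AP1 was below 1 TPM, was not tested, and came to at most 0.320% of HIF1A in a library. No fold is given against a value listed at 0, and the split of reads between the gene and its pseudogene was not tested.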

How the results depend on the processing

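The 9 genes lower and the 2 higher on both scales kept their direction under each of the 9 other settings that gave a value. They also kept it with each library left out. Centring is among the 9 settings and served to pick these genes, and the minimums and the trend cannot change a fold change. Their direction under those settings was therefore fixed in advance. Of 152 values of the 17 genes that passed as deposited, 110 kept direction and side of the threshold, 41 lost the threshold and 1 turned. Leaving out an si-NC library leaves 1 in its arm, whose spread limma then takes from the other group. Genes described here that were lower numbered 9 centred and 1 with the replicate block and centring, against 15 as deposited. Those higher numbered 5 centred, 6 with protein-coding genes rescaled, 4 with quantile normalization and 0 without a minimum TPM or with the replicate block (limma; 3 and 2 at an unadjusted p under 0.05), against 2. Over all genes, those lower numbered 1928 centred, 2397 with protein-coding genes rescaled, 2597 without a minimum TPM, 1682 with quantile normalization and 697 with the replicate block and centring, against 4504. Those higher numbered 1565, 1572, 292 and 1584 under the first 4 of these and 325 with the replicate block, against 529. With 1 library left out, the genes described here that were lower numbered 9 to 14 as deposited and 1 to 9 centred, and those higher 0 to 2 and 2 to 4. Over all genes the ranges were 1960 to 4289 and 584 to 1627 lower and 208 to 578 and 546 to 1341 higher. As a percentage of protein-coding TPM, the log2 ratio of the sums was -0.28 for glucose transporters, -0.11 for upper glycolysis, -0.14 for lower glycolysis, -0.14 for lactate, 0.072 for regulatory kinases, 0.093 for HIF subunits and oxygen sensors, 0.12 for HIF targets outside glycolysis, -0.13 for the 15 glycolytic enzymes. Without 1 library, that of the HIF targets as TPM ranged from -0.053 to 0.0023. Of the 21 genes that did not pass as deposited, 14 changed sign when centred. Log2 fold changes of the opposite sign were, when centred, SLC2A3 0.057, PFKM 0.031, PFKP 0.060, ENO2 0.085, PKM 0.11, PDK1 0.089, PDK3 0.0026, PFKFB3 0.074, PFKFB4 0.11, HIF1A 0.11, EGLN1 0.036, EGLN3 0.042, BNIP3L 0.052, P4HA1 0.13. They were, with protein-coding genes rescaled, SLC2A3 0.046, PFKM 0.018, PFKP 0.047, ENO2 0.073, PKM 0.096, PDK1 0.079, PFKFB3 0.064, PFKFB4 0.10, HIF1A 0.098, EGLN1 0.024, EGLN3 0.033, BNIP3L 0.039, P4HA1 0.12, and, with quantile normalization, SLC2A3 0.069, PFKM 0.044, PFKP 0.070, ENO2 0.10, PDK1 0.12, PDK3 0.037, PFKFB3 0.11, PFKFB4 0.15, HIF1A 0.019, EGLN1 0.055, EGLN3 0.081, BNIP3 0.0083, BNIP3L 0.068, P4HA1 0.14. The deviations of same-numbered libraries from their group means had correlations of 0.0144 and 0.0264. With 2 si-NC libraries these deviations mirror each other, so both values rest on a single difference and cannot show that pairing is absent. The replicate numbers were not taken to pair the libraries, and the fit with a replicate block is given as an alternative. With the replicate block 13 genes were lower, against 28.0% of all genes, and the signs turned for SLC16A1 -0.0062, PFKFB4 0.035, CA12 -0.0022. With the block and centring 1 was lower and 2 higher, against 5.48% and 4.97%, and the signs turned for SLC2A3 0.069, PFKM 0.023, PFKP 0.025, ENO2 0.10, PKM 0.12, PDK1 0.096, PFKFB3 0.13, PFKFB4 0.18, HIF1A 0.12, EGLN1 0.044, EGLN3 0.052, VEGFA 0.010, BNIP3L 0.025, P4HA1 0.13. With 1 library left out, the log2 fold changes that crossed 0 ranged, as deposited, for SLC2A3 -0.18 to 0.00050, SLC16A1 -0.0062 to 0.091, PDK1 -0.13 to 0.053, PFKFB4 -0.16 to 0.13, CA12 -0.0022 to 0.070, P4HA1 -0.038 to 0.014, KDM3A -0.0037 to 0.14. Centred, they ranged for SLC2A3 -0.040 to 0.15, PFKM -0.0067 to 0.061, PFKP -0.027 to 0.14, PDK1 -0.0071 to 0.18, PDK3 -0.053 to 0.051, PFKFB4 -0.024 to 0.24, EPAS1 -0.069 to 0.00036, EGLN1 -0.00094 to 0.068, EGLN3 -0.0067 to 0.085, VEGFA -0.037 to 0.012, BNIP3 -0.041 to 0.011. Differences in share, in percentage points, ranged for PDK1 -1.27 to 5.05, PFKFB3 -4.58 to 2.84, EGLN1 -1.04 to 0.56.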
